A study of Mus musculus with 38 samples.

Results

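The Krüppel-like factors examined here were Klf2, Klf3, Klf4, Klf6, Klf7, Klf9, Klf10 and Klf13, 8 of the 13260 genes in the deposited expression table, and all 8 were found by their symbols. They were followed across 38 RNA-Seq libraries of 100 sorted cells each, from the bones of C57Bl/KaLwRijHsd mice that were 8 to 10 weeks old when they received PBS vehicle (healthy) or 1000000 5TGM1-GFP cells intravenously, and that were killed on day 23. 5TGM1-GFP is a mouse myeloma cell line that carries green fluorescent protein, so the myeloma libraries describe an inoculated line rather than the host's own plasma cells. From the bone lining, CD45- Ter119- cells sorted as CD31+ endothelial cells (EC) and Sca1+ ALCAM- stromal progenitors (SP) gave 5 libraries per condition, ALCAM+ Sca1- osteoprogenitors (OP) gave 4, and GFP+ myeloma cells (MM) gave 5 from the bone lining and 5 from the central bone marrow. Each replicate is named by a letter, which the labels do not tie to an animal, so the p-values measure the spread between these libraries, which may be partly technical. Klf6 was chosen for its higher level in bone lining than in central marrow myeloma cells in these libraries, so its values in that comparison are given as a description without a test.

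Krüppel-like factors are transcription factors with 3 zinc fingers at the carboxyl end that bind GC-rich and CACCC sequences, and they differ mainly in the partners recruited by the rest of the protein. Klf2 and Klf4 are induced in endothelium by flow through the ERK5 and MEF2 pathway and hold vessels in a quiescent state, Klf4 also being a reprogramming factor, and Klf6 and Klf7 are activators of a shared subgroup. Klf3 recruits the CtBP corepressors, whereas Klf9, Klf10 and Klf13 recruit Sin3A, Klf9 being induced by glucocorticoid and thyroid hormone and Klf10 by TGFβ. Several of these genes, Klf2, Klf4, Klf6 and Klf10 among them, are also rapidly induced by growth factors and stress, as immediate-early genes are.

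Reads on genes ranged from 9735031 to 34883291 per library, and the labelled types carried their markers. Cdh5, the endothelial cadherin, was at 134.5 to 391.8 RPKM (reads scaled to transcript length and to library size) in EC and at most 2.39 RPKM in the other types. Of the 5 stromal progenitor markers, Pdgfra was at 34.2 to 98.1 RPKM in SP and at most 6.01 RPKM in EC, whereas Ly6a, which encodes Sca1, was at 2195 to 8769 RPKM in EC and 776 to 2871 RPKM in SP, and the 5 summed to 2253 to 8771 RPKM in EC and 958 to 3036 RPKM in SP. The osteocalcin gene Bglap was at 6211 to 54769 RPKM in OP, and the 4 plasma cell markers summed to 3001 to 9517 RPKM in MM. The neutrophil genes S100a8, S100a9, Camp and Ngp summed to 7233 RPKM in healthy SP library L and to 8061 RPKM in myeloma SP library E, and to at most 179.8 RPKM in every other library. The values bearing on these libraries are given with the results for SP. In pools of sorted cells, fewer cells that express a gene and less RNA per cell cannot be told apart.

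Stretches of 250 bases before the transcription start are shown for 4 members whose levels separate the groups, Klf2 and Klf4 for the niche, Klf6 for the bone lining and Klf9 for its near absence from myeloma cells. RefSeq sequences on GRCm38.p6 were found for 7 of the 8 members, Klf10 having no entry. Capitals mark each match, on either strand, with the CCAAT box, with the MEF2 motif or with the sequence TATAA. The windows end at the base before the RefSeq start and lie at chr8:72318812-72319061 (plus strand) for Klf2, chr4:55532476-55532725 (minus strand) for Klf4, chr13:5861239-5861488 (plus strand) for Klf6 and chr19:23140976-23141225 (plus strand) for Klf9.
Klf2: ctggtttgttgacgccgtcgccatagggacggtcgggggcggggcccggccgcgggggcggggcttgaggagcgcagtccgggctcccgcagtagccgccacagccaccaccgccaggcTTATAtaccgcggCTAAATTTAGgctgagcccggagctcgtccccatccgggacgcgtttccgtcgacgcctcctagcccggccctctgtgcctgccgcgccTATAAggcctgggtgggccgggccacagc
Klf4: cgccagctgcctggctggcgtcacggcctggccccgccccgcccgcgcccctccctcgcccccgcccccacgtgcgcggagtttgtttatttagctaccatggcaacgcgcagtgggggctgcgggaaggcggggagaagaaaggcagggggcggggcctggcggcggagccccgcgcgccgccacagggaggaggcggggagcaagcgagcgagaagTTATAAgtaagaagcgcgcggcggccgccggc
Klf6: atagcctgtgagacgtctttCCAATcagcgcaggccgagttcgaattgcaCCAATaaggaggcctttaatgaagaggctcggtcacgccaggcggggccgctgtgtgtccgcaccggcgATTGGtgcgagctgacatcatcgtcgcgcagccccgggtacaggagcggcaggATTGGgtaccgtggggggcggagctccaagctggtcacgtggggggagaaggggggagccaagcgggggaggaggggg
Klf9: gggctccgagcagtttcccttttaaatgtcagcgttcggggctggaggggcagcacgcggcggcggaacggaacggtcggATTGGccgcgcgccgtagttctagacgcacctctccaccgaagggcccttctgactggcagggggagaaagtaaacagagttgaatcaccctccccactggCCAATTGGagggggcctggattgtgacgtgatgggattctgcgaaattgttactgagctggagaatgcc

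Klf2 held 1 match to the MEF2 motif, the binding sequence of the factors downstream of ERK5, beginning 118 bases before the start. Such a match was found in 2.92% of the 32851 RefSeq promoters cut to the same length. Klf2 and Klf4 each had 2 matches to TATAA, overlapping on opposite strands in Klf4, and neither had CCAAT. In contrast, CCAAT occurred 4 times in Klf6, 3 times in Klf9 and 2 times in Klf13, none of which had TATAA, against 33.8% of all promoters with CCAAT and 22.8% with TATAA. The core of the sites that Krüppel-like factors themselves bind, CACCC, was absent from Klf4 and Klf6, occurred 1 time in Klf2, Klf9 and Klf13, 3 times in Klf7 and 5 times in Klf3, and was present in 52% of all promoters. GGGCGG, the GC box, was found in 6 of these 7 windows, the exception being Klf9, and in 32.7% of all promoters. TGACG, the core of cAMP response elements, was found in Klf2, Klf4, Klf9 and Klf13 and in 17.8% of all promoters, and the CArG box of serum response factor was found in none of the 7 and in 1.47% of all. The windows held 59.2% to 78.4% G and C, against a median of 52.4% over all promoters. These matches describe the letters of the windows and no binding was measured.

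Klf2 and Klf4 were the most abundant members in the niche and were close to absent from myeloma cells. In healthy EC, Klf2 was at 328, 1037, 328, 471 and 264 RPKM in libraries C, L, M, N and O. In EC of myeloma-bearing mice it was at 609, 606, 366, 565 and 390 RPKM in D, E, G, I and J. Library L stood well above the others of its group, and the 2 conditions overlapped. In SP, Klf2 was at 124, 231, 175, 192 and 311 RPKM in healthy libraries C, L, M, N and O and at 260, 370, 178, 612 and 172 RPKM in myeloma libraries D, E, G, I and J. In OP it was at 164, 73.7, 131 and 139 RPKM in healthy libraries L, M, N and O and at 282, 121, 320 and 96.2 RPKM in myeloma libraries D, G, I and J. The mean of Klf2 was 496 ± 226 RPKM in EC (SD, n = 10), 263 ± 143 in SP (SD, n = 10) and 166 ± 88.4 in OP (SD, n = 8), with overlap between neighbouring types. In all 10 myeloma libraries Klf2 lay between 0.0815 and 0.663 RPKM, from 4 to 19 reads per library, whereas no niche library had fewer than 1690 reads.

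Klf4 was more even across the niche than Klf2. It was at 69 to 223 RPKM in healthy EC and 85.9 to 188 RPKM in myeloma EC, at 146 to 333 RPKM in healthy SP and 99.3 to 300 RPKM in myeloma SP, and at 135 to 187 RPKM in healthy OP and 110 to 212 RPKM in myeloma OP. All niche groups overlapped, with means of 154 ± 50.7 RPKM in EC (SD, n = 10), 206 ± 81.1 in SP (SD, n = 10) and 162 ± 33.6 in OP (SD, n = 8). In myeloma cells Klf4 was at 0.0608 to 0.725 RPKM, from 5 to 50 reads per library, the highest value being that of bone lining library G. Klf2 was the highest of the 8 members, per kilobase, in 20 of the 28 niche libraries, including all 10 of EC, and Klf4 was the highest in the other 8.

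**Figure D1:**
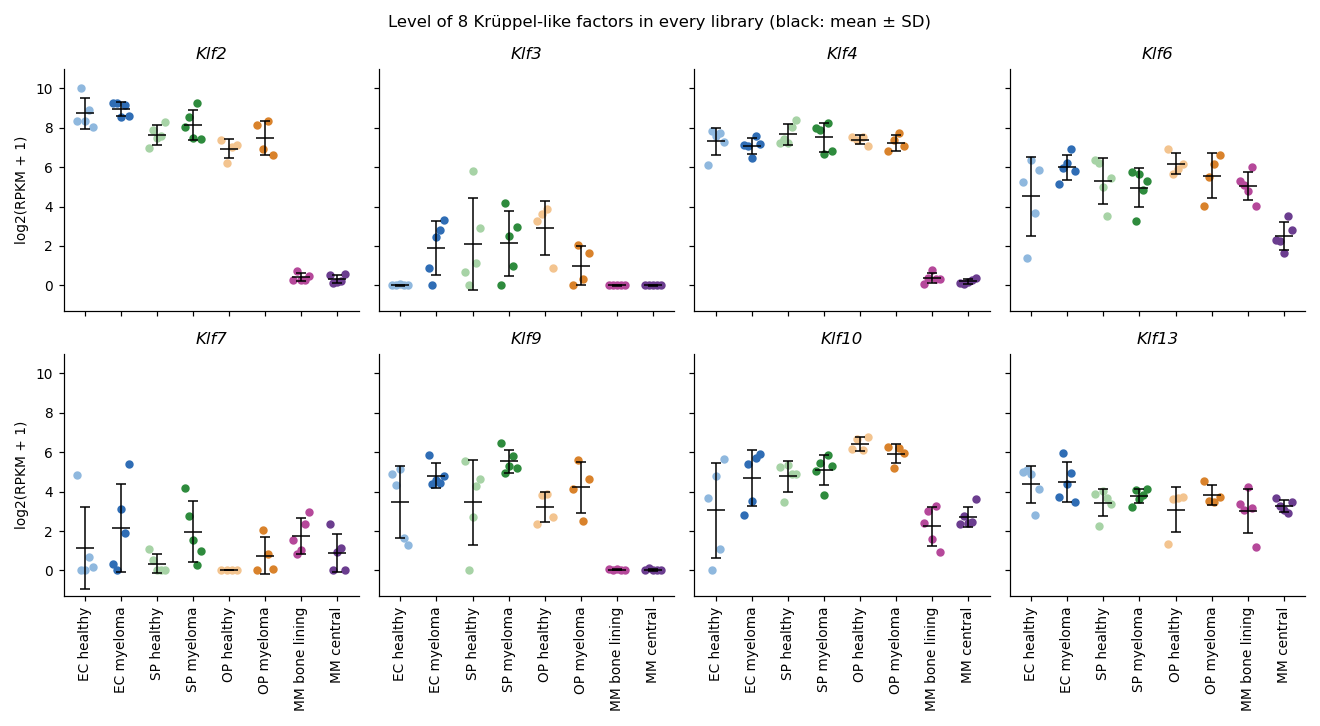
Level of each of the 8 members on the log2(RPKM + 1) scale in every library, by cell type and condition or site, with black bars for the mean ± SD of each group (n = 4 or 5). Klf2 and Klf4 lie near 0 in the 10 myeloma libraries and are high in all 28 niche libraries, Klf6 is higher in bone lining than in central marrow myeloma cells, and Klf3 and Klf7 scatter from 0 upwards within groups.

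Klf6 and Klf7, the paired activators, had unlike profiles. Klf6 had reads in every library. It was at 37.5, 1.66, 80.7, 11.8 and 57.6 RPKM in healthy EC C, L, M, N and O and at 35, 60.8, 72.1, 120 and 54 RPKM in myeloma EC D, E, G, I and J. Libraries L and N were low, and the remaining healthy values fell within the range of the myeloma group. In SP it ranged from 10.4 to 82.1 RPKM in healthy and from 8.68 to 53.1 RPKM in myeloma-bearing mice, and in OP from 50 to 120 RPKM and from 15.3 to 95.7 RPKM. Klf7 was sporadic, at 0 reads in all 4 healthy OP libraries and in 10 of the 28 niche libraries in all, and above 10 RPKM only in healthy EC library C (27.4 RPKM), myeloma EC library J (41.8 RPKM) and myeloma SP library D (17 RPKM). In myeloma cells Klf7 ranged from 0 to 6.84 RPKM.

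Klf3, the CtBP-recruiting repressor, was likewise uneven. In healthy EC it had no reads in 4 of 5 libraries and 2 reads in the fifth, and in myeloma EC it was at 0.833, 0.024, 4.51, 6.02 and 8.8 RPKM in D, E, G, I and J, so that only library E lay in the range of the healthy group. SP ranged from 0 to 55.8 RPKM, the highest value being that of healthy library M, and OP from 0 to 13.7 RPKM. In myeloma cells Klf3 had 1 read in each of 3 libraries and none in the other 7.

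The Sin3A-recruiting members differed among themselves. Klf9 was at 1.49 to 57.7 RPKM in EC, 0.018 to 86.4 RPKM in SP and 4.15 to 47.5 RPKM in OP, but in myeloma cells it had 0 to 7 reads per library and at most 0.0793 RPKM. Healthy SP library L, with 1 read of Klf9, was the only niche library within the myeloma range. Klf10 was at 70.3, 102, 67.8 and 109 RPKM in healthy OP L, M, N and O and at 74.9, 36, 74.2 and 61.7 RPKM in myeloma OP D, G, I and J. SP had 9.93 to 57.1 RPKM of Klf10 and EC 0 to 59.7 RPKM, healthy EC library L having no reads, and myeloma cells 0.91 to 11.1 RPKM. Klf13 was present in every library, at 6.07 to 61.3 RPKM in EC, 3.86 to 16.6 RPKM in SP, 1.55 to 22.2 RPKM in OP and 1.25 to 17.9 RPKM in myeloma cells.

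Ordered by group means, neighbouring groups overlapped for Klf3, Klf6, Klf7, Klf10 and Klf13 at every step, and the single break for Klf9 was between healthy OP (9.21 ± 5.01 RPKM, SD, n = 4) and central marrow myeloma cells (0.0216 ± 0.0346 RPKM, SD, n = 5). Summed over the 8 members, niche libraries carried 397 to 1314 RPKM (median 549) and myeloma libraries 14.9 to 83.6 RPKM (median 26.5). The member with the highest level also differed. Klf6 was highest in all 5 bone lining myeloma libraries, whereas in the central marrow Klf13 was highest in 3 libraries, Klf6 in 1 and Klf10 in 1.

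**Figure D2:**
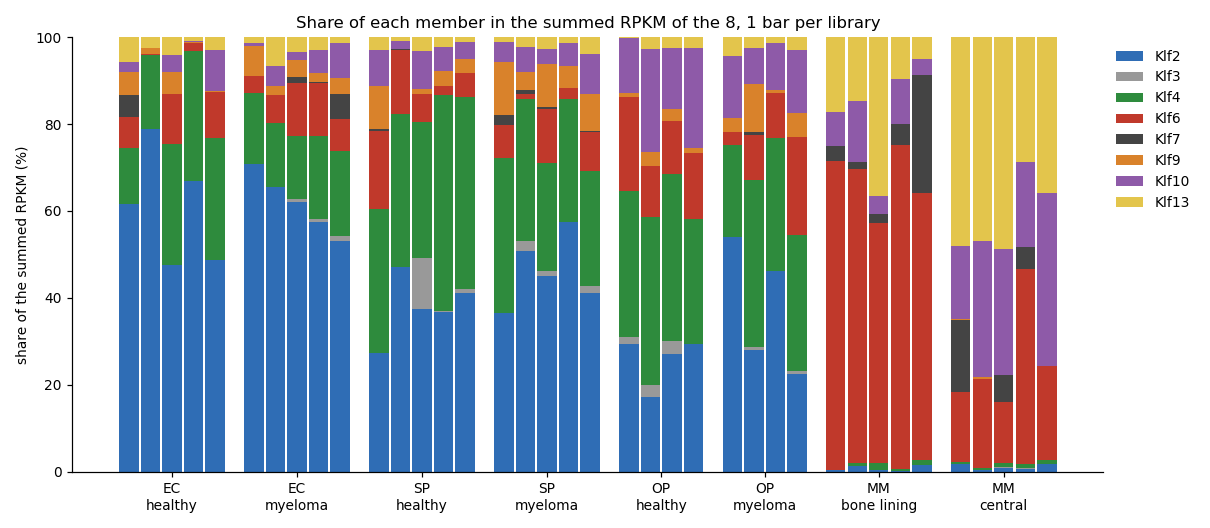
Share of each member in the summed RPKM of the 8, with 1 stacked bar per library and libraries grouped by cell type and condition or site, where each bar adds up to all of its library's summed RPKM. Klf2 and Klf4 fill most of each niche bar, Klf6 takes the largest share in all 5 bone lining myeloma libraries, and Klf13 takes the largest in 3 of the 5 central marrow libraries.

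To ask how the members separate the niche types, the types were compared over both conditions with limma on log2(RPKM + 1) in all 38 libraries, and a gene was called at a Benjamini-Hochberg adjusted p below 0.1 with an absolute log2 fold change above 1, the thresholds of the study. Klf2 was higher in EC than in OP by 1.62 ± 0.32 on the log2 scale (SE, adjusted p = 0.000128, limma), and Klf10 was lower in EC than in OP by -2.31 ± 0.57 (SE, adjusted p = 0.00192, limma). These were the only members called between EC and OP, 1 in each direction, where 10.4% of the 12683 genes tested were higher in EC and 17.5% were lower. In healthy mice alone Klf10 differed by -3.38 (adjusted p = 0.00223), whereas in myeloma-bearing mice alone it differed by -1.24 and was not called (adjusted p = 0.368). Klf3 was also lower in EC than in OP in healthy mice alone (-2.91, adjusted p = 0.0126), and voom-limma on the recovered reads called it too.

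No member was called between EC and SP, where 9.97% of genes were higher and 15.5% lower in EC (4064 of 12683 genes had an unadjusted p below 0.05, and voom-limma called 2 members). Klf2 differed there by 0.95 ± 0.30 (SE, adjusted p = 0.0173, limma), short of the fold threshold, and passed both thresholds in healthy mice alone at 1.10 with an adjusted p of 0.0756. Klf3 and Klf10 were the 2 that voom-limma called, at -3.30 and -1.77, with the lower level in EC. Without letter L, and so without the healthy SP library rich in neutrophil genes, limma called Klf3 as well (-1.43, adjusted p = 0.0762). Between SP and OP no member was called by limma or by voom-limma, with 3.58% of genes higher and 4.90% lower in SP and 2213 genes at an unadjusted p below 0.05. Of all genes called there, 42.2% were higher in SP by limma and 32.2% by voom-limma. The nearest were Klf2, at 0.67 ± 0.32 for SP minus OP (SE, adjusted p = 0.256), and Klf10, at -1.24 ± 0.57 (SE, adjusted p = 0.236).

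Genes tied to Klf2 and Klf4 include the ERK5 and MEF2 pathway with its CCM inhibitors. Of its 10 genes, 2 were higher in EC than in SP, the transcription factor Mef2c (2.69 ± 0.41, SE) and the endothelial receptor Heg1 (2.02 ± 0.39, SE), and none was lower, beside 9.97% of all genes higher and 15.5% lower. Against OP, Heg1 was higher in EC (2.58 ± 0.41, SE) and Mef2a was lower (-1.89 ± 0.68, SE), beside 10.4% of all genes higher and 17.5% lower in EC than in OP. The 8 textbook targets of Klf2 or Klf4 in the table comprise 5 that these factors are known to induce and 3 that they are known to repress, endothelin Edn1 and the adhesion molecules Sele and Vcam1. Of the 5 induced targets, 4 were higher in EC than in SP, led by the sphingosine receptor S1pr1 (6.83 ± 0.52, SE), and the cell cycle inhibitor Cdkn1a was lower (-1.73 ± 0.37, SE). All 3 repressed targets were higher in EC as well, Edn1 by 3.69 ± 0.62 (SE) and Vcam1 by 2.99 ± 0.78 (SE). Against OP, 3 induced targets were higher, among them S1pr1 (4.19 ± 0.56, SE) and the thrombomodulin gene Thbd (4.13 ± 0.43, SE), and Cdkn1a was again lower (-1.32 ± 0.39, SE). Of the repressed targets, Edn1 (4.52 ± 0.65, SE) and Sele (2.95 ± 0.45, SE) were higher than in OP, and Vcam1 was at 0.99 ± 0.83 (SE, adjusted p = 0.447, limma). The medians against SP and OP were 1.33 and 2.57 for the induced and 2.99 and 2.95 for the repressed targets, beside -0.12 and -0.18 over all genes. Between SP and OP, Thbd was higher in SP (2.80 ± 0.43, SE), S1pr1 lower (-2.64 ± 0.56, SE), and Mef2c, the 1 pathway gene called, lower (-2.21 ± 0.44, SE).

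Of 6 targets of Klf6 in the table, the endothelial TGFβ coreceptor Eng was higher in EC than in SP (5.00 ± 0.51, SE) and OP (5.55 ± 0.54, SE), whereas the collagen gene Col1a1 (-7.23 ± 0.46 and -10.0 ± 0.48, SE), the receptor Tgfbr1 (-1.90 ± 0.46 and -1.54 ± 0.48, SE) and Cdkn1a were lower. Col1a1 was also lower in SP than in OP (-2.79 ± 0.48, SE). Klf6 itself did not pass either threshold in these comparisons, at 0.12 ± 0.49 (SE) between EC and SP and -0.61 ± 0.52 (SE) between EC and OP. Of the 6 remaining Krüppel-like factors in the table, Klf5 was lower in EC than in SP (-1.64 ± 0.41, SE) and OP (-1.93 ± 0.44, SE) and no other was called between niche types. Of the 7 related Sp factors, Sp7 (osterix) was lower than in OP both in EC (-3.25 ± 0.31, SE) and in SP (-3.11 ± 0.31, SE), Sp2 was higher in EC than in SP (1.03 ± 0.44, SE) and Sp3 higher in EC than in OP (1.01 ± 0.43, SE). Of 13 partners, Ctbp2 was higher in EC than in SP (1.70 ± 0.54, SE) and OP (1.46 ± 0.58, SE), and the acetyltransferase Kat2b was higher in SP than in OP (2.08 ± 0.53, SE). Beside these lists, 9.97% of all genes were higher and 15.5% lower in EC than in SP. The shares were 10.4% and 17.5% for EC against OP, and 3.58% and 4.90% for SP against OP.

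Myeloma cells were compared with each niche type of myeloma-bearing mice, averaging the sites. Niche cells and bone lining myeloma cells were released by collagenase, which the study does not describe for central marrow cells. For the central marrow libraries, cell type and handling therefore cannot be told apart. Klf6 was left out of these comparisons because its choice used the bone lining libraries. Of the other 7 members, none was higher in myeloma cells in any of the 3 comparisons. Against EC, 6 were lower, namely Klf2, Klf3, Klf4, Klf9, Klf10 and Klf13, where 15.8% of all genes were lower and 21.4% were higher. Against SP, 5 were lower, the same without Klf13, where 17.5% of all genes were lower and 19.6% higher. Against OP, 4 were lower, Klf2, Klf4, Klf9 and Klf10, where 17.2% of all genes were lower and 16.3% higher. The median of the 7 was -2.20 against EC, -2.63 against SP and -3.44 against OP, beside 0.21, 0.11 and 0.09 over all genes.

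On the log2(RPKM + 1) scale the differences of Klf2 and Klf4 were the largest of the 7 in each comparison. Klf2 was lower in myeloma cells by -8.59 ± 0.37 against EC (SE, adjusted p = 7.32e-21), -7.78 ± 0.37 against SP (SE, adjusted p = 9.96e-20) and -7.13 ± 0.40 against OP (SE, adjusted p = 1.88e-17, all limma). The ratio of mean RPKM was 1691 for EC over myeloma cells, 1062 for SP and 683 for OP. For Klf4 the differences were -6.79 ± 0.35, -7.23 ± 0.35 and -6.95 ± 0.37 (SE, adjusted p at most 1.29e-18, limma), and the ratios 586, 851 and 659. Klf9 was lower by -4.79 ± 0.66, -5.51 ± 0.66 and -4.19 ± 0.72 (SE, adjusted p at most 1.34e-05, limma). Its ratios of mean RPKM were 1411, 2336 and 1105, above those of Klf4 in each comparison and above those of Klf2 against SP and OP. These ratios rest on 0 to 7 reads of Klf9 per myeloma library, with 5 of the 10 libraries at 0. The log2(RPKM + 1) scale understates these differences, since myeloma values lay well under 1 RPKM.

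Klf10 was lower by -2.20 ± 0.65 against EC (SE, adjusted p = 0.00850), -2.63 ± 0.65 against SP (SE, adjusted p = 0.00175) and -3.44 ± 0.71 against OP (SE, adjusted p = 0.000207, all limma). Klf3 was lower against EC (-1.89 ± 0.68, SE, adjusted p = 0.0310) and SP (-2.12 ± 0.68, SE, adjusted p = 0.0150). Its ratios of mean RPKM were 655 for EC, 960 for SP and 226 for OP, but rest on 3 reads over the 10 myeloma libraries, whose exact Poisson 95% intervals give 224 to 3176, 328 to 4655 and 77.2 to 1094 and cover counting error only. Against OP it was at -0.999 ± 0.74 (SE, adjusted p = 0.340), which voom-limma called (-4.88, adjusted p = 0.0218). Leaving out library letter G, I or J ended the call of Klf3 against EC (adjusted p from 0.108 to 0.156), and leaving out E ended that against SP (adjusted p = 0.107). Klf13 passed against EC alone (-1.35 ± 0.51, SE, adjusted p = 0.0381), and not without letter E (adjusted p = 0.217) or I (adjusted p = 0.135) or with central marrow cells alone (adjusted p = 0.129). Klf7 was at -0.83 ± 0.73, -0.65 ± 0.73 and 0.57 ± 0.78 (SE) and was not called.

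**Figure D3:**
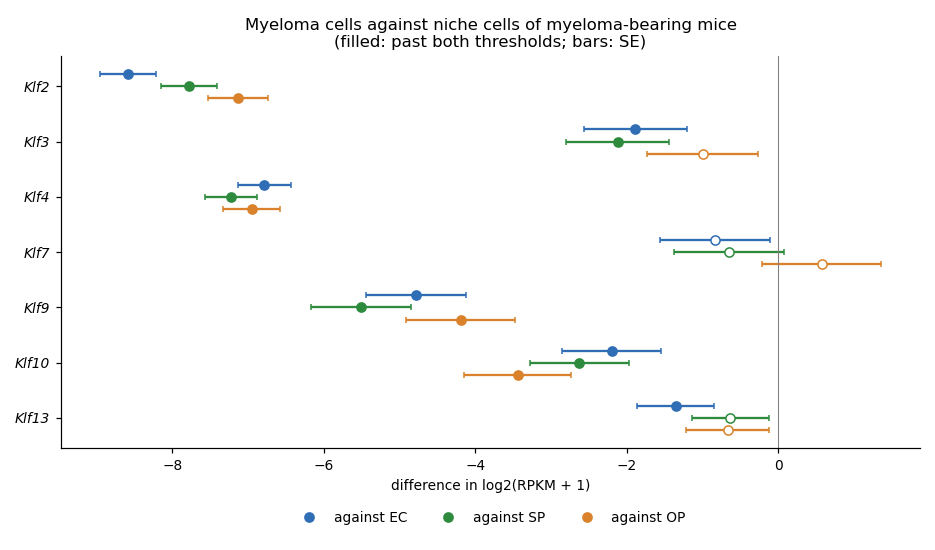
Difference in log2(RPKM + 1) between myeloma cells and EC, SP or OP of myeloma-bearing mice for 7 members, as points with SE bars, filled where both thresholds were passed. Klf2 lies furthest left against EC at -8.59, Klf4 lies close to -7 against all 3 types, and the points of Klf7 lie on either side of 0.

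Klf6 is described by its levels alone. In bone lining myeloma cells it was within the range of the niche, and the mean in EC, SP and OP of myeloma-bearing mice was 1.93, 0.999 and 1.60 times that of bone lining myeloma cells. The same ratios to central marrow myeloma cells were 13.04, 6.74 and 10.8, where handling may also differ. In central marrow cells it reached 10.3 RPKM at most, and the only niche libraries at or below that were healthy EC library L and myeloma SP library E.

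Klf8, which recruits CtBP as Klf3 does, was higher in myeloma cells than in EC (2.89 ± 0.61, SE), SP (3.07 ± 0.61, SE) and OP (2.07 ± 0.66, SE), with 2.94 to 19.8 RPKM in the 10 myeloma libraries, where Klf3 had at most 1 read, and no reads in 17 of the 28 niche libraries. Of the remaining 5 Krüppel-like factors, Klf16 was higher than in EC (1.48 ± 0.69, SE), and Klf5 (-3.55 ± 0.55, SE) and Klf15 (-1.52 ± 0.35, SE) were lower than in OP. Of the 13 partners, the corepressor genes Ctbp1 and Ctbp2 were lower in myeloma cells than in each niche type, Ctbp1 by -1.94 ± 0.60, -1.73 ± 0.60 and -2.32 ± 0.65 (SE) against EC, SP and OP and Ctbp2 by -2.86 ± 0.67, -1.83 ± 0.67 and -1.67 ± 0.72 (SE). Sin3b, a scaffold of the Sin3 complex, was higher in each (2.70 ± 0.66, 1.98 ± 0.66 and 1.65 ± 0.71, SE), as was Fbxw7, a ubiquitin ligase subunit (2.66 ± 0.68, 1.64 ± 0.68 and 1.64 ± 0.73, SE). Altogether 3, 2 and 2 of the 13 were higher and 3, 4 and 2 were lower, with medians of -0.46, 0.05 and -0.24, beside 21.4%, 19.6% and 16.3% of all genes higher and 15.8%, 17.5% and 17.2% lower. Among the 7 Sp factors, Sp9 was higher in each comparison (1.52 ± 0.23 against EC, SE), although its mean was 2.12 RPKM in myeloma cells, and 1, 1 and 2 were higher and 2, 0 and 2 lower.

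Of the 5 induced targets of Klf2 and Klf4, 4 were lower in myeloma cells than in each of EC, SP and OP, and of the 3 repressed targets 3, 1 and 1 were lower, Vcam1 in each comparison. None of the 8 was higher. Against EC, the induced S1pr1 differed by -8.89 ± 0.64 (SE) and Thbd by -7.14 ± 0.50 (SE), and the repressed Vcam1 by -6.15 ± 0.96 (SE). Cdkn1a was lower than in SP and OP and was not called against EC. Of the 10 genes of the ERK5 and MEF2 pathway, 1, 2 and 0 were higher and 2, 0 and 1 lower, near or below the shares of all genes given above, with medians of 0.03, 0.22 and 0.61 beside 0.21, 0.11 and 0.09 over all genes. Heg1 was lower against EC (-4.47 ± 0.48, SE), and Mef2d was higher against EC (1.15 ± 0.43, SE) and SP (1.31 ± 0.43, SE). Mef2c was higher than in SP (2.12 ± 0.51, SE), and its mean was 37.4 RPKM in myeloma cells, where Klf2 was at 0.300 RPKM. Targets of Klf6 were lower in 4, 5 and 3 of 6 cases, Col1a1 and Tgfbr1 in all 3 comparisons, and none was higher, with medians of -1.56, -2.18 and -1.10. Of all genes, 15.8%, 17.5% and 17.2% were lower.

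Immediate-early genes were lower along with these members. Of 15, none was higher in myeloma cells and 13, 14 and 14 were lower against EC, SP and OP, with medians of -5.18, -5.17 and -6.05. Egr1 was lower by -7.98 ± 0.33, -8.67 ± 0.33 and -9.34 ± 0.36 (SE), and Ier3 by -8.20 ± 0.37, -8.85 ± 0.37 and -8.48 ± 0.40 (SE). The summed level of the 15 was 3082 to 8735 RPKM in the 28 niche libraries (median 5873) and 128 to 449 RPKM in the 10 myeloma libraries (median 191). Within the niche, deviations of Klf4 from its group mean followed those of the immediate-early list with r = 0.77 over 28 libraries, against 0.40 for Klf2, 0.19 for Klf10, -0.003 for Klf6 and -0.14 for Klf9. The part of the immediate-early genes in the differences of members between myeloma cells and the niche, or between niche types, was not tested. The glucocorticoid list holds responsive genes, the class to which Klf9 belongs, and the receptor gene Nr3c1. Of its 6 genes, 4, 3 and 2 were lower in myeloma cells and none higher, beside 15.8%, 17.5% and 17.2% of all genes lower. Sgk1 was lower by -8.04 ± 0.32, -7.82 ± 0.32 and -7.04 ± 0.35 (SE). Nr3c1 was among those lower against EC (-1.12 ± 0.47, SE) and SP (-1.42 ± 0.47, SE), and Fkbp5 and Per1 were called in none. Between niche types, 3 and 6 of the immediate-early genes were lower in EC than in SP and OP, among them Atf3 (-1.75 ± 0.38 and -2.35 ± 0.41, SE), Egr2 (-1.66 ± 0.68 and -3.34 ± 0.72, SE) and Cyr61 (-1.14 ± 0.32 and -2.04 ± 0.34, SE), and none of the 15 was higher. The share of all genes lower in EC was 15.5% against SP and 17.5% against OP, and the medians of the 15 were -0.37 and -0.39. The glucocorticoid receptor gene Nr3c1 was lower in OP than in EC (1.28 ± 0.40, SE, for EC minus OP) and SP (1.58 ± 0.40, SE, for SP minus OP), Sgk1 was higher in EC than in OP (1.38 ± 0.28, SE), and Tsc22d3 was lower in EC than in SP (-1.67 ± 0.46, SE).

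To ask whether myeloma changes these factors in the niche, myeloma-bearing mice were compared with healthy mice within each type. No member was called in EC, SP or OP, where 0.00%, 0.00% and 0.0115% of all genes tested were called by limma, with 414, 437 and 422 genes at an unadjusted p below 0.05 and 4, 0 and 0 genes called by voom-limma. The study reported more genes in each type at these thresholds with voom-limma. A fit of all 38 libraries, given at the end, also called more, with no member among them. The lack of calls here therefore does not show that myeloma leaves these factors unchanged. Klf3 in EC and Klf7 in OP did not pass the filter on low values, so 7, 8 and 7 members were tested. Klf9 had the largest difference in SP, 2.09 ± 0.88 (SE, unadjusted p = 0.0296, adjusted p = 0.935, limma). Its level was 46, 0.018, 5.63, 18.7 and 23.8 RPKM in healthy libraries C, L, M, N and O and 86.4, 30.1, 38.9, 54.3 and 35.6 RPKM in myeloma libraries D, E, G, I and J. Only healthy library C overlapped the myeloma range. Library L, with 1 read of Klf9, was also the healthy library with 7233 RPKM of neutrophil genes, and without letter L the difference was 1.24 (adjusted p = 0.995). Without letter E, the myeloma library with 8061 RPKM of neutrophil genes, it was 2.24 (adjusted p = 0.855). In EC and OP the differences of Klf9 were 1.35 ± 1.01 and 1.02 ± 0.84 (SE).

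The difference of Klf6 was 1.49 ± 0.93 (SE) in EC, -0.34 ± 0.68 (SE) in SP and -0.60 ± 0.59 (SE) in OP, none of which passed. Klf10 gave 1.63 ± 1.20, 0.33 ± 0.61 and -0.52 ± 0.45 (SE) in the same order. Klf2 differed by 0.22 ± 0.44, 0.52 ± 0.41 and 0.56 ± 0.47 (SE) and Klf4 by -0.23 ± 0.55, -0.14 ± 0.42 and -0.15 ± 0.37 (SE), and neither passed. Klf7 gave 1.63 ± 0.76 (SE, adjusted p = 0.956) in SP, and Klf3 -1.91 ± 0.95 (SE, adjusted p = 0.981) in OP. The targets of Klf2 and Klf4 had no call either, nor had any of the other lists, and the medians of the targets were 0.41 in EC, 0.65 in SP and 0.23 in OP, beside 0.07, -0.0006 and -0.03 over all genes.

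The change under myeloma was also compared between types. No member was called between EC and SP, EC and OP or SP and OP, and neither was any of the 10596, 10756 and 10735 genes tested (0.00%, 0.00% and 0.00%, limma, with 552, 516 and 437 genes at an unadjusted p below 0.05). The furthest was Klf3 between EC and OP, 3.79 ± 1.12 (SE, unadjusted p = 0.00279, adjusted p = 0.970, limma), which rests on EC libraries with at most 2 reads in healthy mice. Klf6 differed by 1.83 ± 1.17 between EC and SP and 2.08 ± 1.19 between EC and OP (SE, adjusted p = 0.967 and 0.998).

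**Figure D4:**
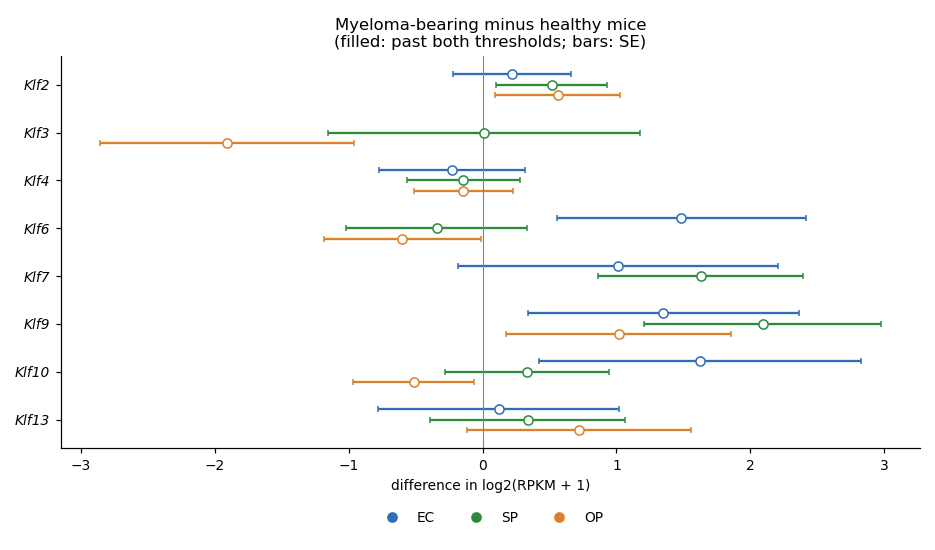
Difference in log2(RPKM + 1) between myeloma-bearing and healthy mice in EC, SP and OP for each member, as points with SE bars, with open points where the thresholds were not both passed. All points are open, and the point of Klf9 in SP lies at 2.09 with an SE of 0.88.

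Within myeloma cells, Klf6 set the sites apart, as its choice ensures. It was at 38.4, 33.6, 27.1, 62.4 and 15.4 RPKM in bone lining libraries D, E, G, I and J and at 3.91, 3.84, 2.09, 10.3 and 6.05 RPKM in central marrow libraries D, E, G, I and J. The groups did not overlap, the lowest bone lining and the highest central marrow value being 15.4 and 10.3 RPKM. The means were 35.4 ± 17.4 and 5.24 ± 3.16 RPKM (SD, n = 5 each), with a ratio of 6.75, and the means on the log2(RPKM + 1) scale were 5.05 ± 0.71 and 2.50 ± 0.70 (SD), a difference of 2.55. None of the other members set the sites apart in this way. For bone lining minus central marrow the mean log2 differences were 0.85 for Klf7, -0.48 for Klf10 and -0.28 for Klf13, and all of these overlapped. Bone lining library J was the lowest of all 10 myeloma libraries for Klf10 (0.91 RPKM) and Klf13 (1.25 RPKM) and the highest for Klf7 (6.84 RPKM). Klf2 and Klf4 were close to absent at both sites, with bone lining and central marrow means of 0.338 and 0.262 RPKM for Klf2 and 0.320 and 0.151 RPKM for Klf4.

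**Figure D5:**
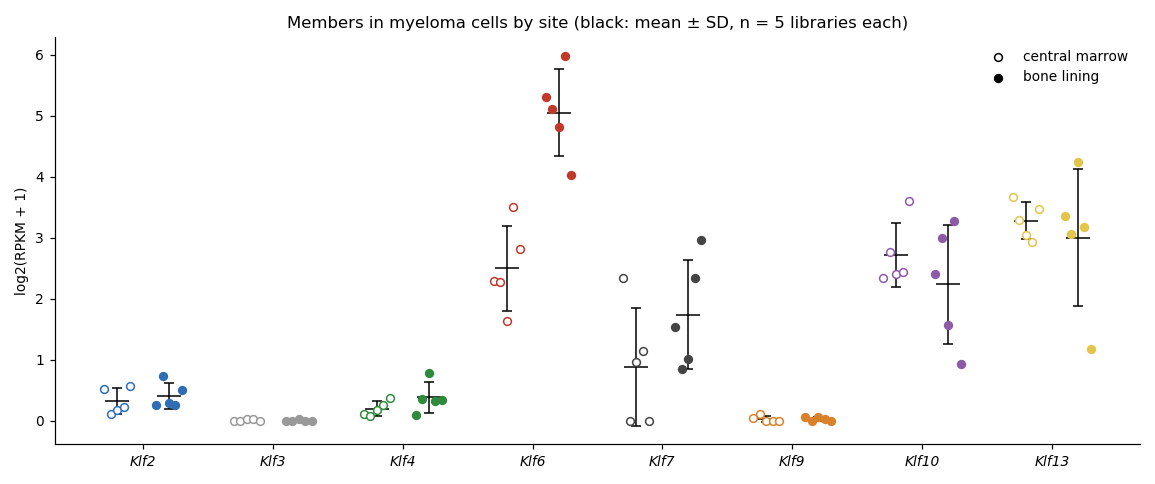
Level of each member on the log2(RPKM + 1) scale in the 5 central marrow (open circles) and 5 bone lining (filled circles) myeloma libraries, with black bars for the mean ± SD of each site. The sites do not overlap for Klf6, with means of 2.50 and 5.05, and overlap for the other 7 members.

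Limma called 18 of 8857 genes between the sites (0.203%), a count that was 3 without the libraries of letter D and 10 without those of G. From the lists, 2 of the 9 immediate-early genes tested were among them, Fos (4.05 ± 0.67, SE, adjusted p = 0.0182) and Fosb (3.26 ± 0.52, SE, adjusted p = 0.0180), and 1 of 5 genes of the glucocorticoid list, Tsc22d3 (1.37 ± 0.29, SE, adjusted p = 0.0891, limma). The alternatives run between the sites were a replicate block, a pseudocount of 0.1, rescaling and leaving out each letter. Neither voom-limma nor a fit without the filter was run there. Fos and Fosb lost their calls without letter D (adjusted p = 0.150 for both, limma) and kept them under the others of these alternatives. Tsc22d3 was called under none of them (adjusted p from 0.134 to 0.378, limma). Dusp1 was at 2.22 ± 0.56 (SE, adjusted p = 0.230) and was not called, nor was Nr4a1 (adjusted p = 0.108). The median of the 9 was 1.31 beside -0.008 over all genes, but it does not stand for the whole list of 15. Nr4a1 passed the filter through the bone lining libraries, being at most 0.568 RPKM in the central marrow. The listed genes that did not pass differed by 0.36 (Egr1) to 1.03 (Jun). No gene was called among the 2 tested targets of Klf6, Cdkn1a and Igf1r, the 3 other Krüppel-like factors, the 5 Sp factors, the 10 partners or the 9 genes of the ERK5 and MEF2 pathway. Within the sites, deviations of Klf6 followed the immediate-early list with r = 0.72 over 10 libraries that share their depth and scaling. The study describes bone lining cells as released by collagenase from bones that were crushed and washed free of marrow. It describes central marrow cells as flushed from the bone in a drug treatment experiment, and not for these libraries. Site and handling therefore cannot be told apart. Markers of the niche types were examined in the same libraries. The 5 stromal progenitor markers summed to 0.437 to 38 RPKM in the bone lining (median 7.79) and to 0.0878 to 4.67 RPKM in the central marrow (median 0.728), against 57.4 or more in SP and OP and 2253 or more in EC. Most of the sum in EC was Ly6a, which was at 0.0466 to 38 RPKM in myeloma cells. Pdgfra, at 13.3 RPKM or more in all SP and OP libraries, was at most 0.0316 RPKM in myeloma cells, and Cdh5 was at most 0.351 RPKM. The 4 endothelial markers summed to 6 to 17.8 RPKM in the bone lining and 3.80 to 23.6 RPKM in the central marrow, and the 6 macrophage and osteoclast markers to 170 to 896 RPKM and 408 to 641 RPKM. Klf2, at 73.7 RPKM or more in every niche library, was at most 0.663 RPKM in the bone lining myeloma libraries that had 15.4 RPKM or more of Klf6. The part of these markers in the level of Klf6 was not tested further.

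The genes whose profile was most like that of each member were named from the correlation of log2(RPKM + 1) over all 38 libraries, which share cell type and depth. For Klf2 these were Tmsb10 (r = 0.983), App (0.983) and Sgk1 (0.980), and for Klf4 they were Ier3 (0.990), Egr1 (0.988) and Emp1 (0.980). For Klf6 they were Nfkbiz (0.683), Fosb (0.669) and Nudt4 (0.666), for Klf9 Zmiz1 (0.857), Btg1 (0.831) and Serpinb6a (0.826), and for Klf10 Cpe (0.851), Ext1 (0.835) and Thbs1 (0.823). For Klf13 they were Lgals9 (0.669), Filip1l (0.628) and Rgs3 (0.618), for Klf3 Ttl (0.775), Lag3 (0.698) and Ttyh2 (0.691), and for Klf7 Sco1 (0.669), Gpr157 (0.641) and Aif1l (0.635).

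After the mean of each group was subtracted, the closest gene was Lsm7 for Klf2 (0.735), Junb for Klf4 (0.712), Cs for Klf6 (0.766), Gorasp2 for Klf9 (0.669), Hoxb7 for Klf10 (0.755), Exd2 for Klf13 (0.629), Ttl for Klf3 (0.740) and Nt5e for Klf7 (0.750). Only Ttl was the closest gene of its member by both measures. The next were Uqcr10 (0.719) and Ndufb11 (0.709) for Klf2, Tob1 (0.659) and Col15a1 (0.656) for Klf4, Atxn7 (0.663) and Cdk5 (0.653) for Klf6, Mtmr14 (0.642) and Ccdc62 (0.635) for Klf9, Cpe (0.755) and Sh3tc2 (0.742) for Klf10, Pick1 (0.591) and Snx4 (0.588) for Klf13, Ift88 (0.721) and C1galt1 (0.712) for Klf3, and Aif1l (0.725) and Sco1 (0.718) for Klf7. Among the members, Klf2 and Klf4 correlated at 0.970 over libraries and 0.553 within groups, and Klf6 and Klf10 at 0.603 and 0.521. Klf2 and Klf6 stood at 0.411 over libraries and -0.475 within groups.

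Positions on GRCm38 (GENCODE M21) place each member on a chromosome of its own. Klf2 spans chr8:72319033-72321656 with 3 merged exons, Klf4 chr4:55527143-55532466 with 5, Klf6 chr13:5861482-5870394 with 5, Klf9 chr19:23141226-23168134 with 3 and Klf10 chr15:38291463-38300706 with 10. Klf3 spans chr5:64803388-64832901 and Klf7 chr1:64029447-64122282, and Klf13 spans chr7:63886351-63938915. Exons of Klf3 overlap those of Gm20033 on the opposite strand by 404 bases, and exons of Klf7 overlap those of Gm26649 by 3196 bases. featureCounts was run with its default settings, which do not use strand. The study used UCSC transcripts, and the models counted were not these merged exons. In healthy EC library C, 27.4 RPKM of Klf7 was 635 reads and 28.2 RPKM of Klf9 was 1595 reads. Their merged exons span 8131 and 4815 bases. In healthy OP library M, 11.2 RPKM of Klf3 was 328 reads and 11.1 RPKM of Klf13 was 900 reads, with 11243 and 7531 bases. Whether any counted reads of Klf3 and Klf7 came from the overlapping stretches is not known.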

How the data were processed

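RNA from 38 libraries of 100 sorted cells was sequenced after SmartSeq2 amplification. The authors aligned the reads with STAR 2.4.0 to GRCm38, counted them per gene with featureCounts (Subread 1.4.5-p1), removed genes that did not exceed 1 CPM in 4 or more samples, and deposited RPKM values made with edgeR. featureCounts was run with default parameters, which do not use strand. The deposited RPKM steps gave back whole reads (within 0.01 of a whole number) for all 13260 genes, from which the read numbers and the depth of each library were taken, and no column of samples was left unused. Depth limits the precision of members with few reads, and intervals for amplified reads without molecular identifiers would cover counting error only.

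Because the table holds RPKM rather than counts, limma 3.58.1 in R 4.3.3 (empirical Bayes with a mean trend) was run on log2(RPKM + 1) after removing genes that did not exceed 1 RPKM in 4 or more of the libraries entering a fit. Genes were called at a Benjamini-Hochberg adjusted p under 0.1 together with a change of more than 1 on the log2 scale in either direction. Myeloma-bearing and healthy mice were compared within each type, and types were compared in 1 fit of 38 libraries. The alternatives were a pseudocount of 0.1, no filter, all libraries in 1 fit, voom-limma on the recovered reads, rescaling to equal median ratios, a replicate block, 1 condition or site alone, and leaving out each replicate. The main fit of each comparison was tested on simulated reads with strong changes, and the alternatives were not. Profiles were compared by Pearson correlation, and promoter windows of 250 bases were searched on both strands. Tables and figures were made with Python 3.11.15.

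The members and the gene lists were chosen with earlier results of these data known. All members were named, with at most 3 called genes per list, comparison and direction, those of largest difference, and the 3 genes most correlated with each member over libraries and within groups. Uncalled list genes (Nr4a1, Dusp1, Igf1r) and single libraries were picked after their values were seen. The lists were the remaining Krüppel-like factors, Sp factors, partners, the ERK5 and MEF2 pathway, targets of Klf2 and Klf4, targets of Klf6, glucocorticoid-responsive genes with the receptor gene Nr3c1, immediate-early genes and cell type markers.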

Additional observations from a re-analysis of the deposited data

Results flagged for a closer look

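Within each group of 4 or 5 libraries, 64 combinations of member and group were examined on the log2(RPKM + 1) scale. They were searched for a library whose gap to its nearest neighbour took up more of the group's range than Dixon's critical value allows, which chance gives for about 1 in 20 groups. There were 6 such values on that scale, printed here in RPKM, on which the flags can differ. Klf10 was low in healthy SP library L, at 9.93 RPKM with the next library at 28.5 RPKM, and this library also carried 7233 RPKM of neutrophil genes. Klf13 was low in healthy OP library L, at 1.55 RPKM with the next at 11.1 RPKM. Klf7 was high in healthy EC library C, at 27.4 RPKM, where the other 4 libraries reached 0.599 RPKM at most. Klf9 was high in myeloma EC library D, at 57.7 RPKM with the next at 26.7 RPKM. The remaining 2 rest on 1 or 2 reads, since Klf3 was at 0.0369 RPKM (2 reads) in healthy EC library M and at 0.0191 RPKM (1 read) in bone lining myeloma library G, with no reads in the other 4 libraries of either group.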

How the results depend on the processing

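Of the single values of members recomputed under alternatives, 912 kept their direction and their side of the thresholds, 20 came to pass them, 8 ceased to pass and 32 changed sign, none of these last past the thresholds. Between EC and SP, where no member was called, 1 was called with a pseudocount of 0.1, 2 with voom-limma, 2 in healthy mice only and 0 to 2 when 1 replicate was left out (Klf2 without I or O, Klf3 without L, Klf13 without N, Klf10 without O). Between EC and OP 1 member was called in myeloma-bearing mice only. Bone lining against central marrow gave 18 genes in all and 3 to 16 without 1 replicate, 3 without D and 10 without G. The labels do not tie letters to animals, and the main fits did not take letters as pairs. Deviations of same-letter libraries had r from -0.0427 to 0.0850 over 7 pairs of groups, none above 0.1. However, 17 of 31 letters correlated best with their own letter, where chance gives 1 in 4 or 5. Among them were all 4 of EC and OP in myeloma-bearing mice. This is a hint from the data and not from the design. If letters are animals, the main fits between types and between sites leave out a pairing. With the replicate block 1 member was called between EC and SP, Klf10, and 12 genes between the sites, and it changed no other member's call. With all 38 libraries in 1 fit, myeloma-bearing against healthy gave 150 genes in EC, 28 in SP and 24 in OP, no member among them. Rescaling moved the median of all genes most between EC and OP, from -0.18 to -0.33, and voom-limma most between myeloma cells and EC, from 0.21 to 0.90. Signs changed with voom-limma for Klf13 in EC under myeloma (-0.0228) and Klf3 between SP and OP (-0.0783), with rescaling for Klf13 between SP and OP (-0.0145), in healthy mice only for Klf6 (-0.79) and Klf9 (0.0167) between EC and SP and Klf3 between SP and OP (-0.80), and in myeloma-bearing mice only for Klf3 (0.89) and Klf6 (0.43) between EC and OP and Klf13 between SP and OP (-0.0384). Leaving out 1 replicate gave ranges across 0 for the myeloma difference of Klf13 in EC (-0.27 to 0.38), of Klf3 (-0.52 to 0.94), Klf4 (-0.32 to 0.0736) and Klf6 (-0.79 to 0.0787) in SP and of Klf4 in OP (-0.31 to 0.0047), and for Klf6 (-0.14 to 0.63), Klf7 (-0.0344 to 0.999) and Klf9 (-0.89 to 0.0627) between EC and SP, Klf4 between EC and OP (-0.21 to 0.0187) and Klf3 between SP and OP (-0.27 to 0.48). The cause of these changes was not tested.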
